A study of Mus musculus with 19 samples.

Results

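Kinesins are motor proteins that hydrolyse ATP to move along microtubules or to take their ends apart. Spindle motors build the meiotic and mitotic spindle, align and separate the chromosomes and organise the midzone at cytokinesis, while transport motors carry vesicles, organelles and other cargo. The mature oocyte holds a spindle at metaphase of the second meiotic division, and the embryo enters its cleavage divisions in part with RNA stored by the mother. CPEB3 belongs to a family of proteins that bind U-rich elements in 3′UTRs and control the poly(A) tails and translation of stored mRNAs.

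The kinesin genes were taken as all protein-coding genes of the deposited table whose symbol is Kif followed by a number and at most 1 letter, or Kifc followed by a number. This gave 39 of the 25891 genes. By their main known role, 14 were grouped as spindle motors and 15 as transport motors, and 10 were left as other kinesins. The rule used no measured value. Cenpe, the kinetochore kinesin, carries another kind of name and is described as a partner.

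RNA was sequenced from MII oocytes and 2cell embryos in 19 libraries, 5 labelled CPEB3+/- and 5 labelled CPEB3-/- for MII oocytes, and 5 labelled CPEB3+/- and 4 labelled CPEB3-/- for 2cell embryos. The donors were BL6 females of 6 to 10 weeks of age, all superovulated with 5 IU of PMSG and 48 h later with 5 IU of hCG. The 2cell embryos came from females mated with males, were cultured in M16 medium as zygotes and were collected 37 h after hCG, so their genotype label is that of the mother. In the methods, the knockout is conditional, with Cre driven by the Zp3 promoter of the growing oocyte on a CPEB3 LoxP/LoxP background. The paper names wild-type males for its breeding and embryo culture experiments. With such males, an embryo labelled CPEB3-/- can carry an intact paternal allele. In the methods, RNA came from 5 cells in sets of 4, whereas the labels list 5, 5, 5 and 4 libraries, and all 19 labelled libraries were used. The labels do not say whether libraries of a group came from separate females, so p values measure the spread between these libraries.

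The estimated depth was 17.2 to 23.5 M fragments per library (M, mega, with a median of 19.7 M), at which 0.1 FPKM (fragments per kilobase of exon and M fragments) corresponds to 4.4 to 34.6 fragments of a kinesin. The targeted gene did not fall in the libraries labelled CPEB3-/-. Cpeb3 was at 0.0755 ± 0.0240 FPKM (SD, n = 5) in CPEB3+/- and 0.162 ± 0.0325 (n = 5) in CPEB3-/- MII libraries, and at 0.0303 ± 0.0149 (n = 5) and 0.0554 ± 0.0129 (n = 4) in the 2cell libraries, so genotypes below are those of the labels. FPKM over all exons also count those outside a deleted part. Oocyte markers summed to 733 to 938 FPKM in CPEB3+/- and 559 to 672 FPKM in CPEB3-/- MII libraries, and 2cell markers to 417 to 805 FPKM in 2cell libraries. Of the 10 cumulus and granulosa markers, 7 were in the table, and they summed to 0.241 to 0.657 FPKM over all libraries, with Foxl2 at 0 in all MII libraries. The alpha-globin genes, the 2 of 4 blood markers in the table, summed to 46.2 to 146 FPKM in 2cell libraries and to at most 0.428 in MII libraries. The globin signal therefore moved with stage, and its part in the stage differences was not tested.

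CPEB proteins recognise U-rich elements in 3′UTRs, so the longest annotated 3′UTR of each kinesin was searched on its own strand for 5 such elements that the methods list. The methods name these 5 as polyadenylation signals and the A-rich ones as CPEB elements, the reverse of the usual names, which are used here. The 5 elements are TTTTAT, the longer TTTTAAAT and TTTTAAGT, the element TTTTACT ending in CT, and the element TTTTCAT ending in CAT, and none of them contains another. Of the 39 kinesins, 28 (71.8%) held at least 1 of them. Of the 20 kinesins tested in 2cell embryos, 14 (70%) did, against 64.6% of the 9431 genes tested there that have a 3′UTR in the annotation. A polyadenylation signal (AATAAA or ATTAAA) was found in 95% of those 20 kinesins and 92.2% of those genes. The windows of 30 bases shown here surround the element nearest to the 3′ end in 3 of the 4 kinesins that were lower in CPEB3-/- 2cell embryos and in 3 abundant or strongly changing ones, and the capitals mark the element.
Kif11: gtttttgaattTTTTAAATtaaattatttt
Kif18a: aatgtgctaataTTTTATtacttggtatat
Kif3c: tctcctttttcTTTTACTgtatcacacatt
Kif22: gtgttgtgtaaatacagtTTTTATtccatg
Kif23: tattttctaaggTTTTATaaaaaaaaaaaa
Kif3a: ccttgtctgaaTTTTAAGTttgatggaaat
These windows lie, in GRCm38 and GENCODE vM21, at chr19:37421823-37421852 on the plus strand for Kif11, at chr2:109341699-109341728 on the plus strand for Kif18a, at chr12:3406156-3406185 on the plus strand for Kif3c, at chr7:127027729-127027758 on the minus strand for Kif22, at chr9:61917485-61917514 on the minus strand for Kif23 and at chr11:53601816-53601845 on the plus strand for Kif3a. In all, the 3′UTR of Kif11 held 3 elements over 1469 bases, that of Kif18a 2 over 507 bases and that of Kif3c 6 over 3609 bases. The 3′UTR of Kif20b, the other kinesin lower in CPEB3-/- 2cell embryos, is 175 bases long and held none of the 5 elements, and that of Kif17 held none over 692 bases.

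Spindle motors made up most of the kinesin RNA of the MII oocyte. In CPEB3+/- MII libraries the 14 spindle motors summed to 42.1 ± 2.02 FPKM (SD, n = 5) and the 15 transport motors to 5.08 ± 0.165, a ratio of 8.30 ± 0.548. Kif23, the motor of the centralspindlin complex of the spindle midzone, alone gave 32.6 ± 0.671% of all kinesin FPKM. The mean FPKM was at least 1 for 8 of the 14 spindle motors and for 1 of the 15 transport motors. At the other end, 19 of the 39 kinesins had a mean under 0.1 FPKM, and Kif1a and Kif5a, known as neuronal motors, and the depolymerase Kif2b were listed at 0 in all 5 of these libraries. Sums of FPKM compare genes per kilobase of exon.

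The order of levels in CPEB3+/- MII oocytes began with Kif23, with 15.9, 15.1, 15.2, 15.9 and 15.3 FPKM in libraries A to E. Kif20a, which carries the chromosome passenger complex to the midzone, followed with 7.74, 6.20, 7.15, 8.03 and 6.98 FPKM. The chromosome-arm motor Kif22 came next with 4.17, 5.62, 4.12, 5.71 and 6.22 FPKM. Kif23 lay above every value of Kif20a, while Kif20a and Kif22 overlapped. Below them, Kif20b (3.58 ± 0.753 FPKM), Kif18a (3.46 ± 0.765) and Kif2c (2.52 ± 0.258) overlapped in turn. Kif2c, a microtubule depolymerase at centromeres, did not overlap with Kif3a, the first transport motor of the order.

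Among transport motors, Kif3a, a subunit of the heterotrimeric motor of cilia and vesicles, led in CPEB3+/- MII oocytes with 1.69, 1.92, 1.74, 1.85 and 1.70 FPKM. Kif17, a relative of Kif3a that works as a homodimer, had 0.651, 0.801, 0.875, 0.935 and 1.02 FPKM. Kif5b, the widely expressed conventional kinesin heavy chain, had 0.835, 0.802, 0.825, 0.813 and 0.773 FPKM. Kif17 and Kif5b overlapped, and Kif3a lay above both. Kif1b, a carrier of mitochondria and vesicle precursors, had 0.653, 0.568, 0.617, 0.615 and 0.557 FPKM in the same libraries, below every value of Kif5b.

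**Figure D1:**
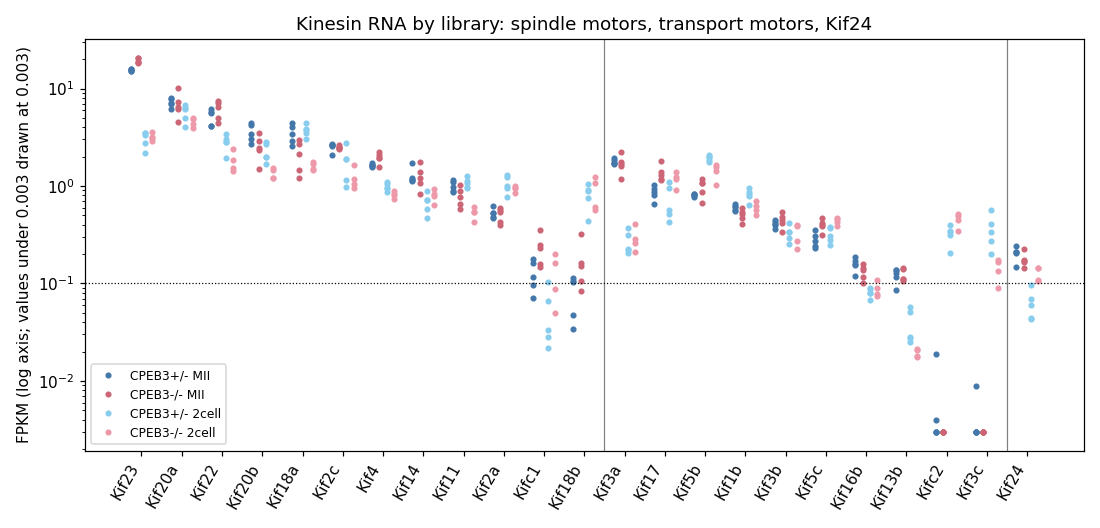
FPKM on a log axis (values under 0.003 are drawn at 0.003) of the 23 kinesins that passed the filter over all libraries, ordered by class and by mean in CPEB3+/- MII oocytes. Each point is a library, and the dotted line marks 0.1 FPKM. Kif23 stands highest in MII libraries, and Kifc2 and Kif3c lie below the dotted line in all 10 MII libraries.

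The balance of the classes differed between stages, with the larger sum in MII oocytes for spindle motors. In CPEB3+/- 2cell embryos the spindle motors summed to 23.9 ± 3.23 FPKM (SD, n = 5) and the transport motors to 5.21 ± 0.128, a ratio of 4.59 ± 0.614. Kif23 alone made most of the difference in the spindle sum, with 15.5 ± 0.407 FPKM in CPEB3+/- MII and 3.05 ± 0.569 in CPEB3+/- 2cell libraries. In the libraries labelled CPEB3-/-, the spindle motors summed to 44.4 ± 4.30 FPKM (n = 5) in MII and 17.98 ± 1.39 (n = 4) in 2cell, and the transport motors to 5.76 ± 0.390 and 5.05 ± 0.509. The MII libraries had 38.5 to 50.5 FPKM of spindle motors and the 2cell libraries 16.7 to 26.9, with no overlap. The sums of transport motors overlapped between the stages.

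These sums depend on the total they are set against, since all genes of the table summed to 85804 ± 1301 FPKM in CPEB3+/- MII and 148514 ± 10625 in CPEB3+/- 2cell libraries. As parts per M of that total, spindle motors stood at 491 ± 28.3 and 161 ± 20.9, and transport motors at 59.3 ± 2.61 and 35.3 ± 3.32. In CPEB3-/- libraries the same quantities were 548 ± 66.8 and 149 ± 15.5 for spindle motors and 71.0 ± 6.77 and 41.8 ± 4.17 for transport motors. The ratio of the classes does not depend on that total, and in CPEB3-/- libraries it was 7.71 ± 0.360 in MII and 3.58 ± 0.340 in 2cell. Between genotypes the ratios overlapped in MII (7.63 to 9.04 against 7.20 to 8.05) and in 2cell (3.70 to 5.21 against 3.13 to 3.86). The class sums are a description and were not tested.

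**Figure D2:**
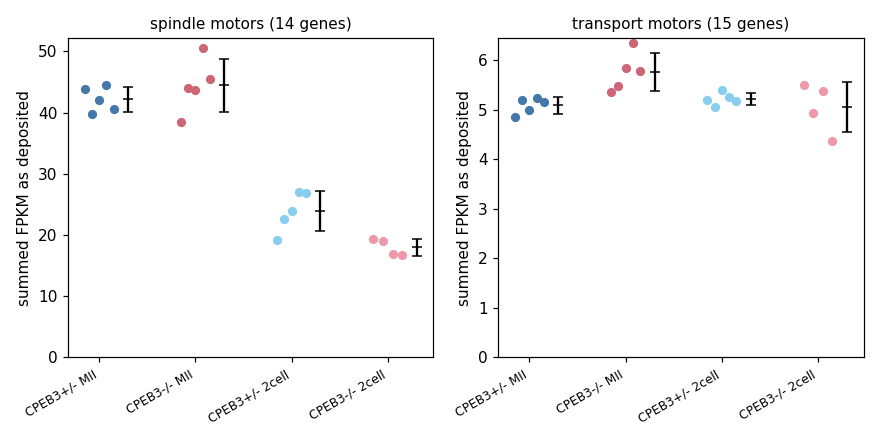
Summed FPKM, as deposited, of the 14 spindle motors (left) and the 15 transport motors (right) in each library, with the mean and SD of each group beside the points and both axes starting at 0. Spindle motor sums of MII libraries lie between 38.5 and 50.5 FPKM and those of 2cell libraries between 16.7 and 26.9, while transport motor sums lie between 4.38 and 6.35 FPKM in all 19 libraries.

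In MII oocytes no kinesin passed the test between genotypes. Of the 39 kinesins, 21 had at least 0.1 FPKM in at least 5 MII libraries and were tested, and 0 were called (a change of over 1.5-fold with an adjusted p under 0.05, limma, Benjamini-Hochberg over 10514 genes), where 12.8% of all genes tested were called. At an unadjusted p under 0.05 there were 8 kinesins, 4 higher and 4 lower, against 37.1% of all genes. The median log2 fold change (CPEB3-/- over CPEB3+/-) was -0.12 for the 12 spindle motors tested, -0.01 for the 8 transport motors and 0.01 for all genes. Of all genes called, 43.9% were higher, a share of 57.1% with FPKM as deposited and 69.9% with libraries scaled to the sum of FPKM. The marker sums moved with genotype here, since those of oocyte markers did not overlap between the MII groups and those of 2cell markers were 37.9 to 45.0 FPKM in CPEB3+/- and 46.4 to 61.9 in CPEB3-/- MII libraries, and their part in the differences was not tested. Each library pools several cells, so fewer cells with an RNA and less of it per cell cannot be told apart here or below. In the methods, mRNA was captured before amplification, and the paper reports poly(A) tails of changed length for selected mRNAs of CPEB3-/- MII oocytes. The part of tail length in the FPKM was not tested.

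Kif17 had the lowest adjusted p of the kinesins in MII oocytes. Its values in CPEB3-/- libraries were 1.79, 1.16, 1.29, 1.38 and 1.19 FPKM, all above those of the CPEB3+/- libraries, with a log2 fold change of 0.52 (SE 0.131, limma adjusted p 0.0197, exact permutation p 0.00794 in a two-sided test over 252 splits, the smallest it can give). That change is under 1.5-fold, so it was not called, and with the GC trend of each library removed it was 0.27 (adjusted p 0.198). Kif23 was the only other kinesin whose groups did not overlap in FPKM as deposited, with 18.1, 20.8, 18.7, 18.5 and 20.6 FPKM in CPEB3-/- libraries. Its log2 fold change was 0.22 (SE 0.0882, limma adjusted p 0.0953). On the scaled values behind that fit its groups were not fully apart (exact permutation p 0.0238). Both were higher in CPEB3-/- libraries, and these 2 of 21 compare with 16.3% of all genes tested, 8.71% on the higher side.

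Kif18a, which dampens chromosome movement at plus ends and sharpens the metaphase plate, had the lowest log2 fold change in MII oocytes. The CPEB3+/- libraries had 4.38, 2.87, 4.07, 3.43 and 2.57 FPKM. The CPEB3-/- libraries had 1.21, 1.46, 2.11, 2.93 and 2.69 FPKM. All but 2 of the CPEB3-/- values lay below every CPEB3+/- value, and the log2 fold change of -0.85 (SE 0.278, limma adjusted p 0.0528) missed the threshold. It was called without CPEB3+/- library E (adjusted p 0.0454) and without CPEB3-/- library D (0.0311) or E (0.0435). The other abundant motors gave wide or overlapping values in CPEB3-/- MII libraries. Kif20a had 4.59, 7.32, 6.12, 10.0 and 6.51 FPKM and Kif22 6.44, 4.94, 7.17, 7.45 and 4.44. Kif3a had 1.17, 1.67, 1.60, 2.21 and 1.76, Kif5b 0.665, 0.869, 1.08, 1.08 and 1.18 and Kif1b 0.412, 0.512, 0.467, 0.546 and 0.592 FPKM. Among these 5, Kif1b alone had an unadjusted p under 0.05 (log2 fold change -0.30, limma adjusted p 0.119).

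In 2cell embryos, 4 of the kinesins tested were lower in libraries labelled CPEB3-/- and none was higher. They were the spindle motors Kif18a, Kif11 and Kif20b and the transport motor Kif3c, 4 of 20 tested (20%), where 18% of all 14050 genes tested were called, 8.95% lower and 9.08% higher. By class, 3 of 11 spindle motors tested and 1 of 8 transport motors were lower, with median log2 fold changes of -0.32 and 0.02 and a median of 0.02 for all genes. Whether the classes differ was not tested. Kif2b missed the filter and was not tested, with 0, 0.120, 0.387 and 0.162 FPKM in CPEB3-/- and 0.0482, 0, 0, 0 and 0 in CPEB3+/- 2cell libraries. It was called in the fit without CPEB3-/- library A, where the filter asked for fewer libraries and only the CPEB3-/- group met it. Of all genes called, 50.4% were higher. With libraries scaled to the sum of FPKM that share was 80.9% and the median of all genes 0.26, and Kif18a and Kif11 alone of the 4 were still called lower.

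Kif18a showed the largest log2 fold change in the main fit, while with the GC trend of each library removed that of Kif3c was larger (-1.04 against -0.76). The CPEB3+/- 2cell libraries had 3.49, 3.80, 3.06, 3.78 and 4.45 FPKM and the CPEB3-/- libraries 1.75, 1.51, 1.67 and 1.45. Every CPEB3-/- value was below every CPEB3+/- value, with group means of 3.72 ± 0.511 (SD, n = 5) and 1.60 ± 0.139 FPKM (n = 4). The log2 fold change was -1.18 (SE 0.140, limma adjusted p 0.00141, exact permutation p 0.00794 in a two-sided test over 126 splits, the smallest it can give). The gene lies at chr2:109280738-109341748, where it overlaps Mettl15 on the other strand, and Mettl15 was at 0.00934 and 0.00857 FPKM in the 2cell groups.

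Kif11, the motor that pushes spindle poles apart and whose inhibition leaves a monopolar spindle, was the next. Its CPEB3+/- 2cell libraries had 0.964, 1.08, 0.977, 1.13 and 1.26 FPKM and its CPEB3-/- libraries 0.540, 0.540, 0.423 and 0.605. The groups did not overlap, and the log2 fold change was -0.93 (SE 0.152, limma adjusted p 0.00436). With a pseudocount of 1 it was -0.46, under 1.5-fold, and not called. In MII oocytes the values were 1.10, 0.892, 0.985, 1.14 and 0.864 FPKM in CPEB3+/- and 0.650, 0.581, 0.777, 1.03 and 0.882 in CPEB3-/- libraries, which overlapped (log2 fold change -0.41, limma adjusted p 0.108). Kif11, at chr19:37376403-37421860, lies 168 kb from Cpeb3, and Kif20b, on the same chromosome, 2.05 Mb from it. Within 1 Mb of Cpeb3, 17 genes were tested in 2cell embryos, of which 3 were lower (Kif11, Pcgf5 and Rpp30) and 1 higher (Gm38345), and 15 in MII oocytes, of which 2 were lower (Hectd2 and Rpp30). These 4 of 17 and 2 of 15 stand beside the 18% and 12.8% called among all genes. The part of this closeness in the difference was not tested.

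Kif20b, a motor of the midbody that acts in cytokinesis, differed less. The CPEB3+/- 2cell libraries had 1.70, 2.00, 1.99, 2.69 and 2.82 FPKM and the CPEB3-/- libraries 1.21, 1.53, 1.44 and 1.20, again with no overlap, and the log2 fold change was -0.70 (SE 0.177, limma adjusted p 0.0228). In MII oocytes it had 4.27, 2.71, 4.43, 3.44 and 3.04 FPKM in CPEB3+/- and 1.51, 2.43, 2.34, 2.92 and 3.52 in CPEB3-/- libraries, with overlap (log2 fold change -0.59, limma adjusted p 0.114). The 2cell call was lost without CPEB3+/- library D (adjusted p 0.0506) or E (0.0518), without CPEB3-/- library A (0.0630) or D (0.0634) and with the GC trend of each library removed (log2 fold change -0.33, limma adjusted p 0.186). It was also lost with the sum of FPKM as the scale (-0.40, limma adjusted p 0.128) and with a pseudocount of 1 (-0.47, under 1.5-fold).

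Kif3c, a neuronal partner of Kif3a, was present in 2cell embryos and almost absent from oocytes. The CPEB3+/- 2cell libraries had 0.271, 0.199, 0.568, 0.337 and 0.406 FPKM and the CPEB3-/- libraries 0.166, 0.0907, 0.133 and 0.173. No value of the CPEB3-/- group reached the CPEB3+/- group, and the log2 fold change was -0.90 (SE 0.240, limma adjusted p 0.0279). Kif3c reached 0.1 FPKM in 5 of 5 CPEB3+/- and 3 of 4 CPEB3-/- libraries. The filter of 4 libraries was thus met by the CPEB3+/- group alone, where it is high, and not by the CPEB3-/- group alone. The call was lost without CPEB3+/- library D (adjusted p 0.0527) or E (0.0639) and without CPEB3-/- library A (0.0532), B (0.0732) or C (0.0643). It was also lost with the sum of FPKM as the scale (-0.70, limma adjusted p 0.0824), with no filter on low values (-0.90, 0.0566) and with a pseudocount of 1 (-0.25, under 1.5-fold). The antisense gene 1110002L01Rik, which overlaps Kif3c, was at 0.101 FPKM in CPEB3+/- and 0.0742 in CPEB3-/- 2cell libraries, and without strand in the counting its reads and those of Kif3c cannot be told apart.

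**Figure D3:**
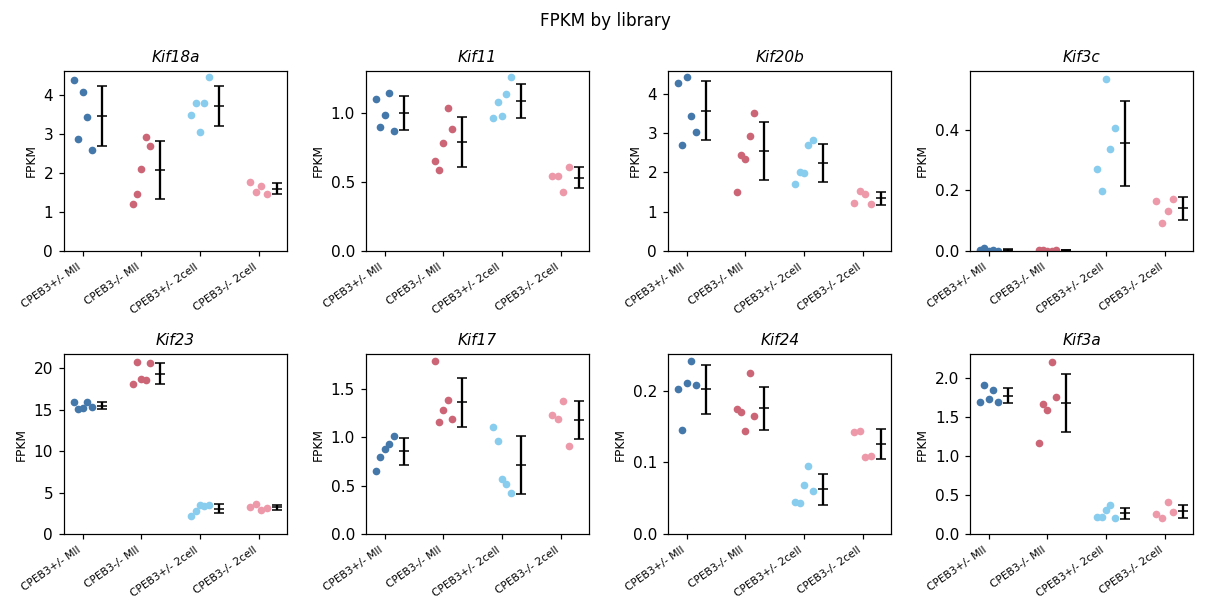
FPKM in each library of 8 kinesins, by group, with the mean and SD beside the points and axes that start at 0. In the 2cell groups Kif18a, Kif11, Kif20b and Kif3c show no overlap between genotypes, Kif23 and Kif3a are low in both 2cell groups, and Kif3c is near 0 in the MII groups.

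Without overlap between the 2cell genotypes there were 7 of 20 kinesins, where 20% of all genes tested did not overlap. Besides the 4 that were called, Kif5b was lower and Kif24 and Kif5c higher, and none of these 3 passed the test. Kif24 reached 0.1 FPKM in 0 of the 5 CPEB3+/- and in all 4 CPEB3-/- libraries. The filter let it in only through the group where it is high, so a higher level there was a condition of its entry. Kif3c, with 3 of 4 CPEB3-/- libraries at 0.1 FPKM, met the filter by its CPEB3+/- group alone. Kif5b had 1.75, 1.84, 1.97, 1.96 and 2.08 FPKM in CPEB3+/- and 1.58, 1.64, 1.44 and 1.02 in CPEB3-/- libraries (log2 fold change -0.45, limma adjusted p 0.0708). Kif24, a motor of the mother centriole that restrains cilia, had 0.0445, 0.0428, 0.0686, 0.0955 and 0.0603 FPKM in CPEB3+/- and 0.143, 0.143, 0.107 and 0.109 in CPEB3-/- libraries (log2 fold change 0.47, limma adjusted p 0.0743). For Kif5c, mostly known from neurons, the log2 fold change was 0.35 (limma adjusted p 0.158).

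Several of the most abundant motors gave overlapping values between the 2cell genotypes. Kif20a had 4.005, 6.37, 5.00, 6.73 and 6.17 FPKM in CPEB3+/- and 5.00, 4.86, 4.36 and 3.89 in CPEB3-/- libraries. Kif22 had 2.82, 1.94, 3.43, 2.84 and 3.02 and 1.84, 2.41, 1.52 and 1.43 FPKM. The log2 fold change of Kif22 was -0.64 (limma adjusted p 0.0507), just above the threshold, with a 95% interval from -1.08 to -0.19, and that of Kif20a was -0.32 (adjusted p 0.213). Kif17 had 1.11, 0.960, 0.568, 0.518 and 0.428 and 1.24, 1.19, 1.38 and 0.912 FPKM, and Kif1b 0.820, 0.791, 0.633, 0.873 and 0.956 and 0.701, 0.4997, 0.561 and 0.617. Kif17 spanned 0.428 to 1.11 FPKM among the CPEB3+/- libraries, and its log2 fold change was 0.69 (limma adjusted p 0.110). For Kif23 the interval of the log2 fold change ran from -0.28 to 0.41.

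The genotype differences moved with base composition. Across all genes tested, the log2 fold change and the GC content of the longest transcript correlated with a Pearson's r of 0.314 in MII (10442 genes) and 0.360 in 2cell (13932 genes), a description across genes that share the same libraries. Over the kinesins r was 0.733 (21 genes) and 0.597 (20 genes). The transcripts of Kif18a, Kif20b and Kif11 hold 38.2%, 39.4% and 42.2% GC, and that of Kif17 60.1%. With the GC trend of each library removed, Kif18a (log2 fold change -0.76, limma adjusted p 0.00447), Kif11 (-0.68, 0.0179) and Kif3c (-1.04, 0.0168) were still called in 2cell embryos, 3 of 20 where 13.1% of all genes were.

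**Figure D4:**
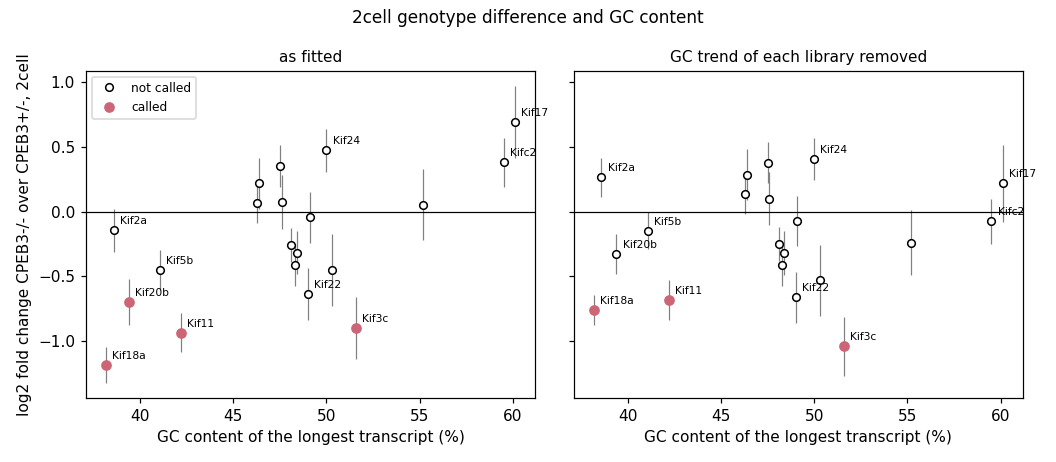
Log2 fold change (CPEB3-/- over CPEB3+/-, 2cell) of the 20 kinesins tested against the GC content of their longest transcript, as fitted (left) and with the GC trend of each library removed (right). Bars are standard errors and filled points were called. Kif18a moves from -1.18 to -0.76 and Kif20b from -0.70 to -0.33, where it is no longer called, while Kif3c lies at -0.90 and -1.04.

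From MII to 2cell in CPEB3+/- libraries, 15 of 23 kinesins were called, 5 higher and 10 lower. Among all genes tested 65.7% were called, 40.8% higher and 24.9% lower. Of 12 spindle motors 7 were lower and 2 higher, and of 10 transport motors 2 were lower and 3 higher. Among the transport motors called, Kif3c and Kifc2 (higher) and Kif13b (lower) passed the filter only through the stage where they are high, which leaves Kif3a lower and Kif5b higher. The same holds for Kifc1 among the 7 spindle motors, which reached 0.1 FPKM in 8 of 10 MII and 3 of 9 2cell libraries, and the classes were not compared by a test. The median log2 fold change was -0.62 for spindle motors, -0.10 for transport motors and 0.33 for all genes. Scaling by the sum of FPKM or by quantiles put the median of all genes at -0.17 and -0.24 and the higher share of all called genes at 45.6% and 41.4% in place of 62.1%, so each change below is best read beside the median of 0.33. The 10 kinesins called lower were still called with the sum and with quantiles, and all but Kifc1 with FPKM as deposited. Of the 5 called higher, 3 were still called with the sum and 4 with quantiles.

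Kif3a and Kif23 fell the most. Kif3a had 0.218, 0.223, 0.313, 0.371 and 0.207 FPKM in CPEB3+/- 2cell libraries, all below its MII values, with a log2 fold change of -2.42 (SE 0.173, limma adjusted p 4.21e-10). Kif23 had 2.19, 2.75, 3.47, 3.36 and 3.49 FPKM there, a log2 fold change of -2.37 (SE 0.121, limma adjusted p 3.45e-12), and its share of kinesin FPKM was 10.3 ± 1.06% (SD, n = 5). With this fall, Kif20a became the highest kinesin of the 2cell embryo (5.66 ± 1.13 FPKM), followed by Kif18a and Kif23, and neighbours in this order overlapped. The third in size in the main fit was Kif24, whose CPEB3+/- MII libraries had 0.203, 0.146, 0.210, 0.241 and 0.208 FPKM (log2 fold change -0.93, SE 0.133, limma adjusted p 4.93e-06). Kif24 reached 0.1 FPKM in 5 of 5 CPEB3+/- MII and 0 of 5 CPEB3+/- 2cell libraries. Its place depended on the processing, since with the sum of FPKM it was -1.28 beside -1.62 for Kif22. With a pseudocount of 1 it was -0.19 and not called. The other kinesins that fell were Kif22, Kif14, Kif4, Kif13b, Kif20b, Kif2c and Kifc1, with log2 fold changes from -0.90 to -0.60. Kif14 and Kif4 act in the midzone and in cytokinesis, and Kifc1 is a minus-end motor that bundles spindle microtubules, whose reads can be shared with its near-identical copy Kifc5b.

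Kif18b, Kif3c and Kifc2 rose the most. Kif18b, which shortens astral microtubules, had 0.105, 0.102, 0.0345, 0.0471 and 0.115 FPKM in CPEB3+/- MII and 0.439, 0.915, 1.05, 0.7498 and 0.899 in CPEB3+/- 2cell libraries, a log2 fold change of 2.30 (SE 0.253, limma adjusted p 1.63e-07). Kif3c was listed at 0.00118, 0.00887, 0, 0.00147 and 0 FPKM in the MII libraries, against the 2cell values above. Kifc2, a minus-end transport motor known from neurons, was listed at 0, 0.0188, 0.00400, 0 and 0 FPKM in MII and had 0.317, 0.205, 0.397, 0.347 and 0.338 in 2cell libraries. For the last 2 genes the fitted changes of 2.11 (limma adjusted p 1.89e-09) and 2.00 (1.15e-10) on the log2(FPKM + 0.1) scale are set by the added 0.1, since the MII values are near 0. Both reached 0.1 FPKM in 0 of the 10 MII libraries and entered the test only through the 2cell libraries, so a rise was a condition of their entry. The same holds in the other direction for Kif13b, one of the 10 called lower, which reached 0.1 FPKM in 0 of the 9 2cell libraries. With no filter on low values, Kif3c, Kifc2 and Kif13b were still called in CPEB3+/- libraries. Kifc2 overlaps Cyhr1 on the other strand, which was at 0.149 and 0.368 FPKM in the same groups. Kif5b (log2 fold change 1.11, limma adjusted p 2.24e-06) and the pole depolymerase Kif2a (0.82, 5.13e-05) rose as well, and Kif5b took the first place among transport motors. These rises depended on the scaling, since Kif2a was not called with the sum of FPKM (0.16, limma adjusted p 0.270) or quantiles (0.29, 0.0773), nor Kif5b with the sum (0.42, 0.0161, under 1.5-fold).

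In libraries labelled CPEB3-/-, 11 of 23 kinesins were called from MII to 2cell, 4 higher and 7 lower, where 64.8% of all genes were called, 41% higher and 23.7% lower. Kif3c and Kifc2 among the 4 and Kif13b among the 7 again passed the filter only through the stage where they are high. The split was 3 higher and 16 lower with the sum of FPKM as the scale, and 2 higher and 16 lower with quantiles. Of all genes called, the higher share was 63.3%, and it was 48.8% with the sum and 41.5% with quantiles. All 11 were among the 15 of CPEB3+/- libraries, 73.3% of that list, and the overlap over all genes was not counted. Kif23 had 3.21, 3.61, 2.89 and 3.12 FPKM in CPEB3-/- 2cell libraries (log2 fold change -2.51, limma adjusted p 4.46e-12) and Kif3a 0.260, 0.208, 0.411 and 0.284 (-2.14, 6.41e-09). The interaction of stage and genotype was -0.13 for Kif23 (95% interval -0.51 to 0.24) and 0.28 for Kif3a (-0.25 to 0.81), neither of which passed the test. Kif18b had 0.322, 0.150, 0.0840, 0.163 and 0.105 FPKM in MII and 1.23, 0.572, 0.606 and 1.07 in 2cell libraries (log2 fold change 1.90, limma adjusted p 4.33e-06). Kifc2 was listed at 0 in all 5 CPEB3-/- MII libraries and had 0.491, 0.343, 0.453 and 0.514 FPKM in the 2cell libraries. For Kif3c the CPEB3-/- MII libraries had 0.00283, 0.00122, 0, 0 and 0.00110 FPKM, as near to 0 as in CPEB3+/- oocytes.

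**Figure D5:**
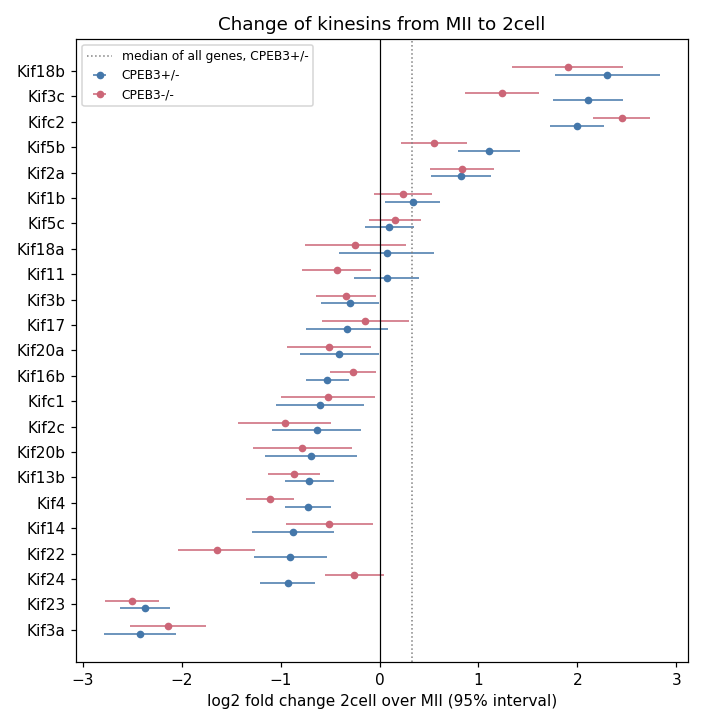
Log2 fold change from MII to 2cell, with its 95% interval, of the 23 kinesins tested in CPEB3+/- and CPEB3-/- libraries, ordered by the value in CPEB3+/- libraries. The dotted line marks the median of all genes (0.33, CPEB3+/-). Kif3a and Kif23 lie below -2 in both genotypes, and Kif3c and Kif24 show intervals that do not overlap between genotypes.

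The interaction of genotype and stage was called for 2 of 23 kinesins, Kif3c and Kif24, where 7.76% of all genes were called for the interaction. For Kif3c the interaction was -0.87 on the log2 scale (SE 0.244, limma adjusted p 0.0351), and with MII values near 0 in both genotypes the interaction restates the 2cell difference and does not show that the genotype difference changes with stage. For Kif24 it was 0.67 (SE 0.194, limma adjusted p 0.0392). Kif24 had 0.174, 0.171, 0.143, 0.225 and 0.165 FPKM in CPEB3-/- MII libraries, and its log2 fold change to the 2cell stage was -0.25 in CPEB3-/- (limma adjusted p 0.113, not called) and -0.93 in CPEB3+/- libraries. In CPEB3-/- libraries it was -0.65 with the sum of FPKM as the scale and -1.08 with quantiles, both of which were called, and in CPEB3+/- libraries -1.28 and -1.61. Of 19 fits that each left out 1 library, 15 called Kif3c, which was lost without CPEB3+/- 2cell library D (adjusted p 0.0513) or E (0.0631) or CPEB3-/- 2cell library B (0.0743) or C (0.0584), and 7 called Kif24, with adjusted p values up to 0.0790 in the others. With the sum of FPKM as the scale neither was called (adjusted p 0.130 for Kif3c and 0.0517 for Kif24), and with quantiles Kif24 was not (0.0826). Of all genes called for the interaction 49.6% were positive, and 65.7% with the sum. The 3 spindle motors called between 2cell genotypes were not called for the interaction, with -0.50 for Kif11 (limma adjusted p 0.191), -0.32 for Kif18a (0.624) and -0.09 for Kif20b (0.909), so their differences are not shown to be other in embryos than in oocytes.

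Partners of the kinesins were read from lists of 11 spindle proteins, 12 cargo and adaptor proteins and 16 dynein and dynactin subunits. In 2cell embryos 5 of the 11 spindle partners were lower in CPEB3-/- libraries and 1 was higher, with a list median of -0.55, where 8.95% of all genes were called lower and 9.08% higher with a median of 0.02. With the sum of FPKM as the scale, Hmmr alone was lower and Numa1 higher, with a list median of -0.30. The lower ones were Hmmr, a spindle-pole protein (log2 fold change -1.31, limma adjusted p 0.00128), Tacc3 and Tpx2, which stabilise spindle microtubules (-0.89 and -0.81), and Prc1 and Nusap1, which crosslink and bundle microtubules (-0.86 and -0.72). The higher one was Numa1, which anchors dynein at the poles (0.74). Racgap1, the partner of Kif23 in centralspindlin, had a log2 fold change of 0.23 (limma adjusted p 0.523). In MII oocytes 0 of the 11 were called, where 12.8% of all genes were, and Ect2 had an adjusted p of 0.0225 under the 1.5-fold limit (0.32, limma).

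Among the cargo partners, Rhot1, the mitochondrial adaptor, was higher in CPEB3-/- MII oocytes (0.61, limma adjusted p 0.0142), 1 of 3 tested beside 12.8% of all genes and not called with quantiles, and Klc4, a light chain of conventional kinesin, in CPEB3-/- 2cell embryos (0.77, 0.0215), 1 of 7 tested beside 18% of all genes. Of the dynein and dynactin subunits, 0 of 13 were called in MII and 1 of 12 in 2cell, beside 12.8% and 18% of all genes, and in 2cell embryos Dynlt3, a dynein light chain, was lower (-0.93, limma adjusted p 0.0112). Cenpe fell from MII to 2cell in both genotypes (log2 fold changes of -1.75 and -1.51) and did not pass the test between genotypes (-0.31 in MII and -0.09 in 2cell). From MII to 2cell in CPEB3+/- libraries, 6 of 11 spindle partners were called lower and 1 higher (Hmmr, 4.07), and of 7 cargo partners 3 were higher and 1 lower. The dynein and dynactin list had 6 higher and 4 lower of 14, led by the light chains Dynll1 (4.26) and Dynlrb1 (2.93). Among all genes 40.8% were called higher and 24.9% lower, and Trak2 and Dync1h1 (higher) and Dctn1 (lower) passed the filter only through the stage where they are high. The list medians were -0.66 for spindle partners, 0.41 for cargo partners and 0.18 for dynein and dynactin, beside 0.33 for all genes. With the sum of FPKM the counts became 1 higher and 9 lower for spindle partners, 2 and 2 for cargo partners, and 3 and 6 for dynein and dynactin.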

How the data were processed

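From the RNA of MII oocytes and 2cell embryos, mRNA was captured and amplified with a SMART-seq v4 kit, which does not mark strand. It was sequenced in 19 libraries. Per the labels and the methods, the authors trimmed reads with Trim Galore 0.4.1, mapped them to GRCm38 with HISAT2 2.0.5 and used SeqMonk for the FPKM they deposited. The table is named as raw counts but holds fractional values (0.00203% are whole numbers above 0). Of low values, 43.5 to 47.2% fell within 0.05 of whole fragments, which gave the depth estimate, so no count test was run.

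Libraries were scaled with a trimmed mean of M values (30% of ratios and 5% of levels trimmed on each side), and log2(scaled FPKM + 0.1) was fitted in limma 3.58.1 (R 4.3.3) with a variance trend. Fold changes on this scale understate those of low genes. A gene entered the test of a stage when 5 MII or 4 2cell libraries reached 0.1 FPKM, and the stage and interaction fit when 4 of 19 did. Called means a Benjamini-Hochberg adjusted p under 0.05 over all genes tested and over 1.5-fold. Single kinesins were also compared by exact permutation tests. The fit was tested on simulated data. Classes, lists and members were chosen with earlier results of these data known. Values in every library are given for kinesins called between genotypes or for the interaction, the 3 most abundant of each class in each CPEB3+/- group and the 3 largest rises and falls in CPEB3+/- libraries. All 39 kinesins matched GENCODE vM21 by symbol and chromosome. Columns of values not used numbered 0.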

Additional observations from a re-analysis of the deposited data

Results flagged for a closer look

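In 90 sets of 4 or 5 libraries of 1 group, each set for 1 kinesin or for the sum of 1 class, 2 libraries stood apart by Dixon's test, and chance alone marks about 5% of such sets. For Kif14, CPEB3+/- MII library D had 1.70 FPKM where the other 4 had 1.12 to 1.22. For Kif2c, CPEB3+/- MII library E had 2.07 FPKM where the other 4 had 2.56 to 2.70.

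The interaction of genotype and stage passed the test for Kif3c, at -0.87 on the log2 scale, and for Kif24, at 0.67. Kif3c reached 0.1 FPKM in 0 of 10 MII libraries, so its interaction restates the 2cell difference. Both are given with their tests in the account of the interaction.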

How the results depend on the processing

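Under the 3 other scalings, 24 of 110 log2 fold changes of a tested kinesin over the 5 comparisons changed sign under at least 1, and none of these was among the 32 that were called. Of 381 values under an alternative for a kinesin named in a comparison, 322 stayed on the same side of the threshold, 49 lost it and 10 gained it. Between MII genotypes the count of 0 kinesins became 1 with no fold threshold, with FPKM as deposited or with scaling to the sum of FPKM (Kif17 in each), and 1 with a pseudocount of 1, a filter of 1 FPKM or all 19 libraries in 1 fit (Kif18a in each), and it ran from 0 to 1 over fits without 1 library. Between 2cell genotypes the count of 4 became 1 with a pseudocount of 1 (Kif18a), and 2 to 5 without 1 library, with Kif2b among those called without CPEB3-/- library A. Scaling to the sum of FPKM called 5 in 2cell embryos, with Kif17, Kif24 and Kif5c higher and Kif11 and Kif18a lower. From MII to 2cell, the 15 called in CPEB3+/- libraries became 5 with a pseudocount of 1 and 8 with a filter of 1 FPKM, where fewer kinesins are tested, 19 with the sum and 18 with quantiles, and ran from 13 to 15 without 1 library. The 11 called in CPEB3-/- libraries became 18 with no fold threshold, 19 with the sum, 18 with quantiles, and 6 with a pseudocount of 1 or a filter of 1 FPKM. For the interaction, the 2 called became 1 with the sum (Kifc2), with quantiles or with no filter (Kif3c in both), and 0 with a pseudocount of 1 or a filter of 1 FPKM, and ran from 0 (without CPEB3+/- 2cell library E) to 2 without 1 library. Where no reason is given, the cause was not tested.

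The ratio of spindle to transport motors, with Kif2a counted as a transport motor, became 7.42 and 7 in CPEB3+/- and CPEB3-/- MII and 3.64 and 2.86 in 2cell libraries. Without the most abundant member of each class it became 8.08 in CPEB3+/- and 6.16 in CPEB3-/- MII libraries. In 2cell libraries it became 5.58 in CPEB3+/- and 3.74 in CPEB3-/-. The genes left out differ between stages, with Kif23 and Kif3a in MII and Kif20a and Kif5b in 2cell libraries.

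Libraries share letters A to E between groups, but same-letter libraries did not deviate together (correlations from -0.147 to 0.095 over the pairs of groups), and the own letter was the best match for 1 of 5 pairs between MII genotypes and 0 of 4 between 2cell genotypes. With the letter as a replicate block, 0 kinesins were called in MII, 1 in 2cell (Kif18a) and 0 for the interaction, and both stage counts stayed at 15 and 11. Over all genes, calls went from 1347 to 827 in MII, from 2534 to 365 in 2cell and from 1225 to 836 for the interaction with the block. Depth limits the kinesins under 0.1 FPKM, which rest on few fragments.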
